A study of Mus musculus with 6 samples.

Results

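The mitochondrially encoded genes are the 37 genes of the mouse mitochondrial genome, taken as every row of the deposited table whose symbol starts with mt-, out of 41669 rows in all. They comprise 13 mRNAs, 2 rRNAs and 22 tRNAs. The mRNAs encode 7 subunits of complex I, 1 of complex III, 3 of complex IV and 2 of complex V of the respiratory chain. Of the 37 rows, 14 had counts and 23 were listed at 0 in all 6 libraries. The 14 are mt-Rnr1, mt-Rnr2, mt-Nd1, mt-Nd2, mt-Nd3, mt-Nd4, mt-Nd4l, mt-Nd5, mt-Nd6, mt-Cytb, mt-Co1, mt-Co2, mt-Co3 and mt-Atp6.

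The series measured RNA in B cells from the spleen of the NZB/W F1 mouse, a cross used as a model of lupus. Cells were taken at a late stage of disease from 3 female and 3 male mice, with 1 library per mouse, purified on a positive-selection column and cultured for 24 h with CpG, an oligonucleotide that activates B cells through an innate DNA sensor. Both sexes share the strain, the disease stage, the purification and the CpG culture, so no library holds freshly isolated or unstimulated cells, and the groups differ by sex alone as labelled. The series asks how sex-biased expression in B cells relates to the inactive X chromosome.

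Mitochondrial DNA is a small circle inherited from the mother and present in many copies per cell, apart from the X and Y chromosomes. Each strand is transcribed by a single-subunit polymerase as a long precursor, and the tRNAs that lie between the other genes are cut out to release the mRNAs and rRNAs. The mRNAs are polyadenylated, and for several of them the tail completes the stop codon. Activated B cells grow and raise their respiration, which depends on these genes.

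Some features of the genes bear on how a count table can measure them. In the GENCODE M21 annotation of GRCm38, 12 of the 13 mRNAs lie on the plus strand of chromosome M, and mt-Nd6 lies on the minus strand. Neighbouring mRNAs on the same strand share bases in 3 places: mt-Atp8 and mt-Atp6 share 43, mt-Nd4l and mt-Nd4 share 7, and mt-Atp6 and mt-Co3 share 1. The gene bodies of mt-Nd5 and mt-Nd6 overlap by 14 bases on opposite strands. Whether reads were counted by strand is not given in the sources used here. Of the mRNAs, those of mt-Co3, mt-Nd4 and mt-Cytb end in a single T of the stop codon, and the other 10 end in a complete one. The sequences that follow are GENCODE M21 transcripts. They are shown because they lie on either side of the gap in length between mitochondrial rows at 0 and rows with counts. The mRNA of mt-Atp8, a small complex V subunit, is 204 bases long (chrM:7766-7969, plus strand) and was listed at 0. Capitals mark the bases it shares with mt-Atp6.
mt-Atp8: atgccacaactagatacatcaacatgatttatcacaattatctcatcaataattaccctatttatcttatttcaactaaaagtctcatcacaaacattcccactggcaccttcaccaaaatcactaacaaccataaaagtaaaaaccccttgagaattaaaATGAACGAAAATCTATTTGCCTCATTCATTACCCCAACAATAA
The mRNA of mt-Nd4l, a complex I subunit, is 297 bases long (chrM:9877-10173, plus strand) and is the shortest row with counts. Capitals mark the bases it shares with mt-Nd4.
mt-Nd4l: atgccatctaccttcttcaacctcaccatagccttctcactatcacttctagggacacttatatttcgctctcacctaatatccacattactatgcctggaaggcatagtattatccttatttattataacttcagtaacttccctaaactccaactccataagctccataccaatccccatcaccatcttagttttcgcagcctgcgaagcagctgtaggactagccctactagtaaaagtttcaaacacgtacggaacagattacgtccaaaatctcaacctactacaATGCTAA
The longest of the tRNAs is mt-Tl1, 75 bases (chrM:2676-2750, plus strand), which lies directly between mt-Rnr2 and mt-Nd1.
mt-Tl1: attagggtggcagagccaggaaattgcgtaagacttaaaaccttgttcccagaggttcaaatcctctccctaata

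The rows listed at 0 were the 22 tRNAs, 59 to 75 bases long, and mt-Atp8. The rows with counts began at 297 bases, so length separated both sets with no exception. Across the table only the lower end of this held without exception. Of 5866 genes whose longest GENCODE transcript has 204 bases or fewer, 0 had a value above 0 in any library. Of 990 genes of 205 to 296 bases 8.69% had one, of 3467 genes of 297 to 500 bases 27.1%, and of 28904 longer genes 63.2%. The shortest transcript of a gene above 0 was 214 bases. The zeros of mt-Atp8 and the tRNAs therefore carry no information on their abundance, and complex V is represented by mt-Atp6 alone. The length classes were chosen after the values were seen.

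Libraries held 24089561 to 35659883 estimated counts. Xist and 4 Y-linked genes separated the sexes as labelled. Summed B cell markers reached 2147 to 3049 CPM (counts scaled to a common library size), with all 8 of 8 detected. T cell markers summed to 5.37 to 7.06 CPM in females and 3.54 to 5.07 in males, and erythroid markers to 0.689 to 2.19 and 0.0169 to 0.402. Both sums were without overlap, where 9.0% of all tested genes had no overlap in either direction. The erythroid sum of male replicate 1, 0.0169 CPM, lay below the 0.0951 CPM that 3 counts make in that library. Monocyte and macrophage markers (5 of 6 in the table) summed to 57.6 to 144 CPM in females and 39.6 to 95.8 in males. Granulocyte markers summed to at most 0.425 CPM, natural killer cell markers to at most 7.51 and dendritic cell markers to at most 7.25. Elane, Hba-a2, Ncr1 and Prf1 were at 0 in every library. The part of other cells in the mitochondrial values was not tested.

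The mitochondrial rows took a large part of every library. Their share of library counts was 8.63%, 9.59% and 11.4% in female replicates 1 to 3 and 10.1%, 8.84% and 9.82% in male replicates 1 to 3. Female replicate 3 was the highest and female replicate 1 the lowest, and the males lay between them. The mean was 9.87% ± 1.40 (SD, n = 3) in females and 9.59% ± 0.667 (SD, n = 3) in males, a difference of 0.280 percentage points (exact two-sided permutation p = 0.9, where 3 against 3 cannot go below 0.1). Without female replicate 3 the difference was -0.481, and without male replicate 2 it was -0.0955. Against the TMM effective library size, the scaling that CPM uses here, it was 1.42. The 95% Wilson intervals spanned at most 8.62% to 8.64% in the shallowest library, far narrower than the spread between mice, and cover counting error only. The mRNAs took 8.21% to 10.9% of library counts and the rRNAs 0.420% to 0.538%. In bulk RNA, fewer cells of a type and less RNA per cell cannot be told apart.

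Levels of different genes were compared as CPM per kilobase of transcript, averaged over the 6 libraries. By this measure the mRNAs for cytochrome c oxidase and ATP synthase subunits lay at the top, and the rRNAs and the shortest complex I mRNAs at the bottom. The mean was 15216 ± 5022 (SD, n = 6) for mt-Atp6, the proton-channel subunit of ATP synthase, and 13514 ± 1511 for mt-Co1, the catalytic subunit of complex IV. These neighbours were not separated, since mt-Atp6 lay above mt-Co1 in 4 of 6 libraries. The other complex IV subunits followed, mt-Co3 at 12158 ± 1817 and mt-Co2, which receives electrons from cytochrome c, at 9843 ± 3036. Between them lay mt-Nd1, a membrane subunit of complex I, at 11684 ± 2409.
The sole complex III mRNA, mt-Cytb, stood at 9180 ± 1877 CPM per kilobase. It lay above the next gene, mt-Nd2 of complex I at 8436 ± 3059, in 5 of 6 libraries. The next steps held in every library: mt-Nd2 exceeded mt-Nd4 (6305 ± 1136), and mt-Nd4 exceeded mt-Nd6 (3717 ± 1308), in all 6 libraries. The level of mt-Nd5, the last complex I gene on its strand, was 2675 ± 952, below mt-Nd6 in 6 of 6 libraries. At the bottom the order was loose: mt-Nd5 lay above mt-Rnr2 in 5 of 6 libraries, mt-Rnr1 above mt-Nd3 in 4 and mt-Nd3 above mt-Nd4l in 3.

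**Figure D1:**
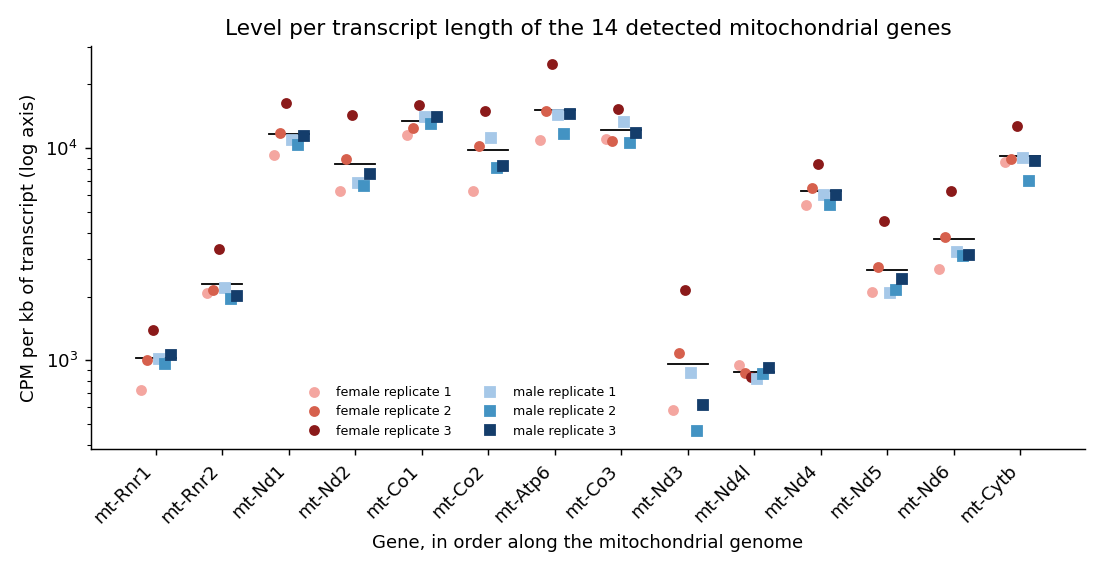
CPM per kilobase of transcript (log axis) in each of 3 female (circles) and 3 male (squares) libraries for the 14 detected mitochondrial genes, in order along the genome; the black line is the mean of 6. The spread is widest for mt-Nd3 and narrowest for mt-Nd4l, and female replicate 3 is highest in 13 of 14 genes.

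The rRNAs stood below the median mRNA, and above mt-Nd3 and mt-Nd4l in the means. The order against mt-Nd3 depended on a nuclear copy of that gene, described below. With the counts of the copy added, mt-Nd3 reached 3480 ± 1905 CPM per kilobase (SD, n = 6), above both rRNAs in the means. The large rRNA, mt-Rnr2, had 2282 ± 522 CPM per kilobase (SD, n = 6) and the small rRNA, mt-Rnr1, 1024 ± 212. Per length, mt-Rnr2 reached 0.272 ± 0.033 of the median mRNA, with 0.241 to 0.329 over the 6 libraries, so it was below that median in each. It stood at 2.25 ± 0.344 times mt-Rnr1 (1.89 to 2.86). Both rRNAs are excised from one precursor. How RNA was selected before library preparation is not given in the sources used here. Its part in the rRNA level was not tested.

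The minus-strand mRNA mt-Nd6, a membrane subunit of complex I, can be set against the plus-strand mRNAs. Its level per length was 0.428, 0.427 and 0.437 of their median in female replicates 1 to 3 and 0.358, 0.441 and 0.381 in male replicates 1 to 3. The mean was 0.412 ± 0.034 (SD, n = 6), and the sexes overlapped. The ratio was steadier than the level itself, which ran from 1404 to 3261 CPM.

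The neighbours mt-Nd4l and mt-Nd4 overlap and are known to be carried on one bicistronic mRNA. Their levels per length were nevertheless apart: mt-Nd4 stood at 7.24 ± 1.59 times the level of mt-Nd4l (SD, n = 6), from 5.69 times in female replicate 1 to 10.2 times in female replicate 3. The ratio depended on a nuclear copy of mt-Nd4, described below. With the counts of the copy added it was 8.99 ± 3.05 (6.64 to 14.9). The level of mt-Nd4l was the least variable of the 14, at 282, 260 and 247 CPM in the females and 244, 257 and 274 in the males. At 297 bases mt-Nd4l is the shortest mitochondrial row with counts. Of all genes of 297 to 500 bases 27.1% had a value above 0, against 63.2% of longer genes. These shares do not measure how far short transcripts lose counts, which was not tested. Whether mt-Nd4l and mt-Nd3 (961 ± 619 CPM per kilobase, 348 bases) are on the scale of the longer genes is therefore not known. For mt-Nd3, a nuclear copy described below also held 68.1% to 79.7% of the counts of gene and copy.

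Part of the counts of mitochondrial sequence stood on nuclear rows. A search of the mitochondrial transcripts against the nuclear transcripts of GENCODE M21 found 11 pseudogenes with at least 95% identity over at least 100 bases and 80% of their own length. They match 9 of the 14 detected genes. Such copies are pieces of mitochondrial DNA that were inserted into nuclear chromosomes. Of these, 7 lie side by side on the minus strand of chromosome 1 (chr1:24611535-24616197), 3 on chromosome 2 and 1 on chromosome 13. All thresholds of this search were chosen after the values were seen.

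The copies on chromosome 1 are nearly letter for letter. The copy of mt-Co2, Gm28661, matches 681 of its 684 bases with no mismatch and lacks only the stop codon. Their last bases are shown because they hold all of the difference between the transcripts, with the bases absent from the copy in capitals (chrM:7634-7696, plus strand, and chr1:24614885-24614944, minus strand).
mt-Co2 end: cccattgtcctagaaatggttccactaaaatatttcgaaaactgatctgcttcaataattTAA
Gm28661 end: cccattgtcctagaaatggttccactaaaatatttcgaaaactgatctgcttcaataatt
The copy of mt-Nd3, Gm28438, differs over its 345 aligned bases by T3C, counted from 1 at the 5′ end of mt-Nd3, the reference base first. The first bases of both are shown with this position in capitals (chrM:9459-9521, plus strand, and chr1:24613057-24613119, minus strand).
mt-Nd3 window: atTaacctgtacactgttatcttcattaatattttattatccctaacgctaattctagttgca
Gm28438 window: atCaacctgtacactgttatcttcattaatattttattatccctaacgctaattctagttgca
Cut into 31-base windows, Gm28661 holds 651 and mt-Co2 654, and each of the 651 occurs in mt-Co2. Likewise Gm10925 (of mt-Atp6), Gm28437 (of mt-Co3), Gm10222 (of mt-Nd4l) and Gm28439 (of mt-Nd4) hold 0 windows that their mitochondrial gene lacks, while Gm28438 holds 3. Reads within shared windows could come from either row, and the deposited values do not tell them apart. All sequences compared here are those of the reference annotation. Whether the mitochondrial DNA of these NZB/W F1 mice differs from it, at this position of mt-Nd3 or elsewhere, was not tested. The part of such differences in the levels and in the split between gene and copy was not tested either.

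The split between gene and copy varied with the pair. Of the counts on mt-Co2 and Gm28661 together, the copy held 47.5%, 16.1% and 18.1% in female replicates 1 to 3 and 19.4%, 33.8% and 37.8% in male replicates 1 to 3. The sexes overlapped, and female replicate 1 stood highest. For mt-Nd3 the copy held more than the gene in every library: Gm28438 took 74.4%, 68.1% and 70.5% in the females and 68.9%, 77.9% and 79.7% in the males.
For mt-Atp6, the copy Gm10925 took 20.3%, 4.45% and 0.648% in the females and 6.94%, 3.87% and 3.41% in the males. Female replicate 1 was again highest. Gm28439, which covers the first 876 of the 1378 bases of mt-Nd4, took 14.2%, 20.8% and 31.6% in the females and 10.2%, 10.9% and 16.3% in the males. Here female replicate 3 was highest, and the sexes overlapped.

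Other copies held smaller shares. Gm13340, a full-length copy of mt-Co1 on chromosome 2 at 97.6% identity, held 10.9% to 11.9% of the pair. Gm13339 of mt-Nd2 held 3.08% to 3.54%, and Gm4076 of mt-Nd5 1.01% to 2.09%. Gm28437, identical to mt-Co3 over 783 bases, held 0.0361% to 0.909%. Gm10222 was listed at 0 throughout, Gm13341 of mt-Co2 reached at most 0.597 CPM, and Gm29216 of mt-Co1 had counts only in male replicate 1 (2250 estimated counts).
All 11 copies together held 0.764% to 1.10% of library counts, or 7.02% to 11.3% of the mitochondrial and copy counts combined.

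**Figure D2:**
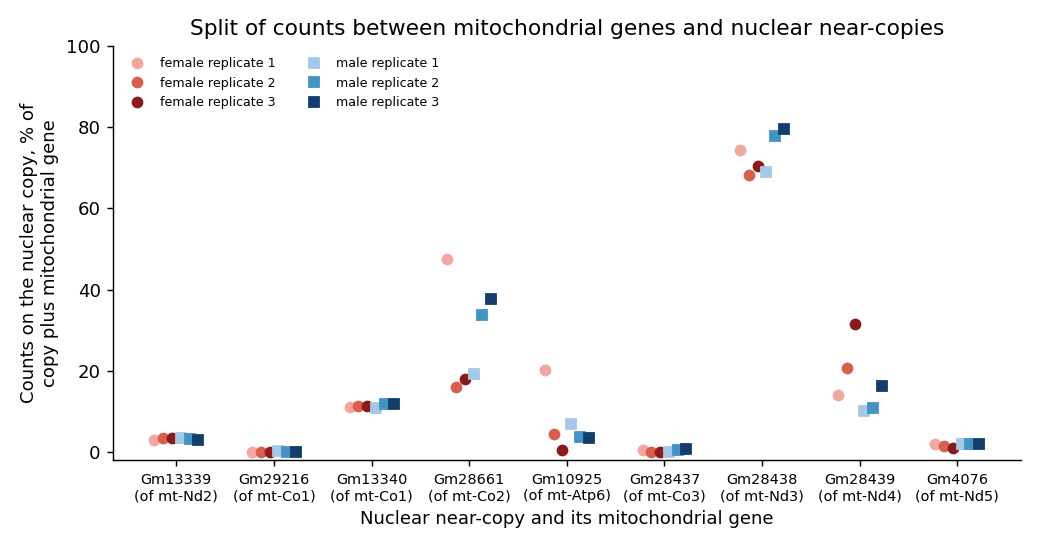
Percentage of the counts of each gene and copy pair that stood on the nuclear copy, in each of 3 female (circles) and 3 male (squares) libraries, for the 9 copies that reach 10 CPM in any library. Shares of Gm28661 run from 16.1% to 47.5%, while those of Gm13340 stay within 10.9% to 11.9%.

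Adding the copies back moved some levels more than others. The coefficient of variation over the 6 libraries went from 30.8% to 17.3% for mt-Co2 and from 33.0% to 28.2% for mt-Atp6. For mt-Nd3 it went from 64.4% to 54.7%, whereas for mt-Nd4 it went from 18.0% to 30.2%. Per kilobase, mt-Co2 with its copies reached 13650 ± 2359 CPM (SD, n = 6) and took rank 3 instead of rank 5 of the 14. With Gm28438 added, mt-Nd3 reached 3480 ± 1905 and took rank 10 instead of 13, above mt-Nd5 and both rRNAs in the means.

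No mitochondrial gene differed between female and male libraries in edgeR's quasi-likelihood test at an adjusted p of 0.05: 0 of the 14 passed, and the adjusted p was 0.999 for each. Over all 12172 genes tested, 0.0575% passed in either direction. At an unadjusted p under 0.05, 0 of the 14 passed in edgeR, where 2.89% of all genes did. DESeq2 placed 1 of the 14 and limma-voom 0 under an unadjusted p of 0.05, and neither called any. The share of all genes under that p is not given for these methods, so the 1 gene cannot be set against it. The sexes overlapped in all 14 genes, where 1095 of 12172 tested genes (9.0%) had CPM without overlap in either direction. These are 3 mice against 3, and a p that misses the threshold does not show that the sexes are alike.

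With all 6 libraries, the 4 widest differences were those of the complex I genes mt-Nd3, mt-Nd5, mt-Nd2 and mt-Nd6. Without female replicate 3, those of mt-Nd5, mt-Nd2 and mt-Nd6 were 0.12, 0.11 and 0.039 in log2, smaller in size than those of mt-Rnr1 (-0.24) and mt-Co1 (-0.19). The CPM of mt-Nd3 was 203.9, 377 and 744 in female replicates 1 to 3 and 305, 162 and 214 in male replicates 1 to 3. Female replicate 3 was above every other library, and female replicate 1 lay below male replicates 1 and 3. The log2 fold change of females over males was 0.96 ± 0.45 (SE, edgeR), and 0.36 without female replicate 3. With near-copies of at least 95% identity added it was 0.70.
The level of mt-Nd5 was 3812, 5018 and 8292 CPM in the females and 3786, 3936 and 4431 in the males, a log2 fold change of 0.49 ± 0.28 (SE). For mt-Nd2 the CPM was 6518, 9231 and 14935 in the females and 7110, 6897 and 7848 in the males, and the log2 fold change was again 0.49, with an SE of 0.30. In both genes female replicate 3 was far above the rest and female replicate 1 was within or below the male values.
The minus-strand mt-Nd6 had 1404, 1984 and 3261 CPM in the females and 1677, 1614 and 1633 in the males (log2 fold change 0.43 ± 0.29, SE). The males lay close together, and female replicate 1 fell below them. For mt-Nd4 the log2 fold change was 0.22 ± 0.21 (7440 to 11662 CPM), and 0.43 with near-copies of at least 95% identity added. For mt-Nd1 it was 0.20 ± 0.23 (8934 to 15578 CPM). For mt-Nd4l it was 0.025 ± 0.13.

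In complex III, mt-Cytb had 9866, 10235 and 14543 CPM in the females and 10318, 8063 and 9984 in the males. The log2 fold change was 0.29 ± 0.22 (SE), and without female replicate 3 the females fell in the range of the males.
In complex IV, mt-Co1 had 17937, 19243 and 24647 CPM in the females and 21634, 20146 and 21672 in the males. It was the only one of the 14 with a negative log2 fold change, -0.04 ± 0.19 (SE), and 2 of 3 females lay below all males. The values for mt-Co2 were 4324, 7045 and 10208 in the females and 7674, 5500 and 5644 in the males (0.20 ± 0.32). With near-copies of at least 95% identity added, mt-Co2 ran from 8244 to 12468 CPM. For mt-Co3 the range was 8339 to 11972 CPM and the log2 fold change 0.06 ± 0.20.
In complex V, mt-Atp6 had 7480, 10177 and 16963 CPM in the females and 9754, 7918 and 9878 in the males (0.33 ± 0.30). The rRNAs gave 0.30 ± 0.22 for mt-Rnr2 (3079 to 5272 CPM) and 0.035 ± 0.23 for mt-Rnr1 (693 to 1323 CPM).

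**Figure D3:**
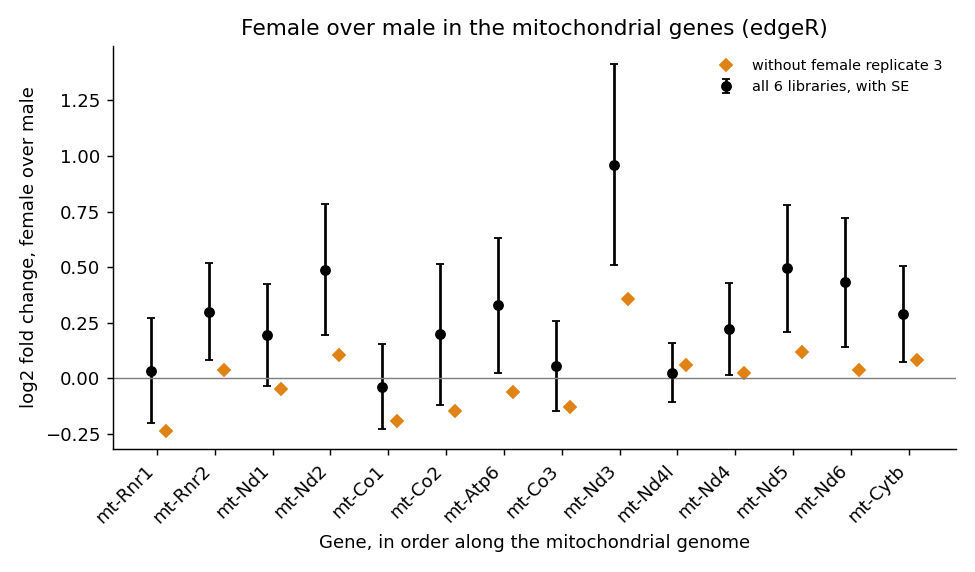
edgeR log2 fold change of females over males for the 14 detected mitochondrial genes in all 6 libraries (black, with SE) and without female replicate 3 (orange). With all libraries 13 of 14 lie above 0, and without female replicate 3 this is 8 of 14.

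The direction of these differences moved with 1 library. The log2 fold change was positive in 13 of 14 genes, with a median of 0.25, beside 0.00 over all genes tested. Without female replicate 3 it was positive in 8 of 14, with a median of 0.03. Scaled by library totals alone, which put the median of all genes at -0.12, it was positive in 10 of 14, with a median of 0.10. Female replicate 3 was the highest of the 6 libraries in 13 of 14 genes, mt-Nd4l being the exception, and female replicate 1 was the lowest in 8. Over all genes, too, female replicate 3 stood apart from the rest. Its score on principal component 1 (50.8% of variance) was 94.2, where scores elsewhere ran from -47.9 to 6.66, and TMM gave it a factor of 0.816 and the remaining libraries 0.993 to 1.069.

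Base composition moved with female replicates 1 and 3. The detected mitochondrial genes have a GC content of 33.0% to 41.1%. Each library was set against the gene's mean log2 level over the remaining libraries. The median deviation of the mitochondrial genes was -0.36 in female replicate 1 and 0.64 in female replicate 3. In the 2903 nuclear and mitochondrial genes of the lowest GC quartile (28.1% to 43.9%), it was -0.21 and 0.45. Female replicate 2 had 0.04 in the mitochondrial genes and 0.027 in the quartile, and male replicate 3 had -0.06 and -0.058. Male replicate 1 had -0.041 and -0.146, of the same sign. Male replicate 2 had -0.241 in the mitochondrial genes and 0.002 in the quartile. In the highest GC quartile the median deviation was 0.50 in female replicate 1 and -0.85 in female replicate 3, with the order of these libraries turned round. Within the mitochondrial genes, mt-Nd3 has the lowest GC content, 33.0%, and a deviation of 1.63 in female replicate 3. The highest is that of mt-Nd4l, 41.1%, with a deviation of -0.09. These ends of the range are also the shortest detected genes. Between them the deviation did not fall steadily with GC content. In the same library mt-Nd4 at 35.6% had 0.53, mt-Nd5 at 37.1% had 0.99 and mt-Co1 at 39.9% had 0.30. The part of base composition in the difference between the sexes was not tested.

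The make-up of the mitochondrial counts does not depend on how libraries are scaled against each other. Complexes I and IV held the largest shares of the mt- sum. Complex IV held 38.3%, 35.98% and 33.5% in female replicates 1 to 3 and 41.4%, 40.3% and 38.8% in male replicates 1 to 3. The females all lay below the males. The means were 35.9% ± 2.37 and 40.2% ± 1.29 (SD, n = 3 each), a difference of females minus males of -4.25 percentage points. The exact permutation p was 0.1, the smallest that 3 against 3 allows, and 0.5 after Benjamini-Hochberg adjustment over 5 classes. Without female replicate 3 the difference was -3.05 percentage points, and with the near-copies added it was -5.15.
Complex I held 35.4%, 38.4% and 39.2% in the females and 33.2%, 35.9% and 35.7% in the males (means 37.7% ± 2.02 and 34.9% ± 1.53, exact permutation p = 0.3). The groups overlapped by female replicate 1. Complex III, as mt-Cytb, held 11.1% ± 0.987 and 10.3% ± 0.635 (exact permutation p = 0.6). Complex V, as mt-Atp6, held 10.6% ± 1.45 and 10.01% ± 0.557 (exact permutation p = 0.6), and without female replicate 3 the difference turned from 0.631 to -0.122 percentage points. The rRNAs held 4.71% ± 0.207 and 4.60% ± 0.152 (exact permutation p = 0.5). The tRNAs were listed at 0.

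**Figure D4:**
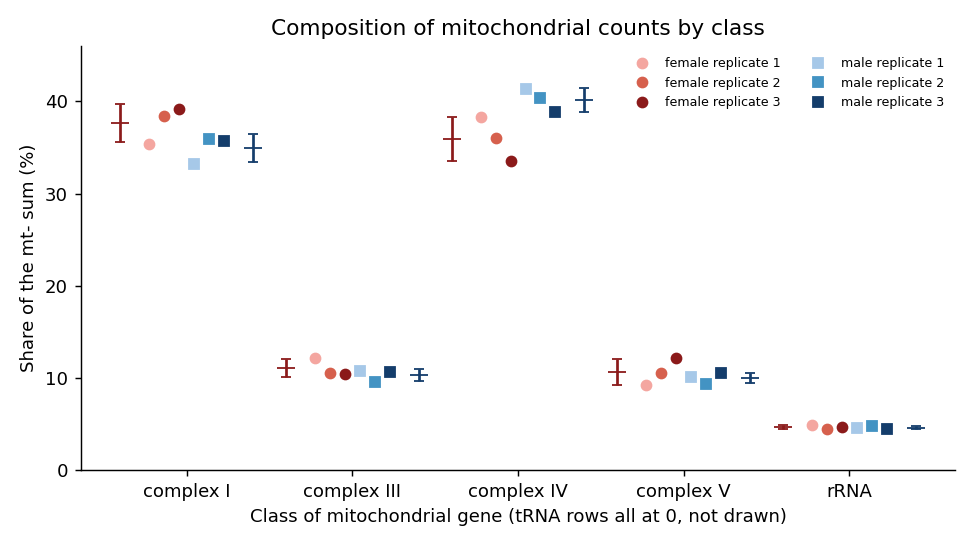
Share of the mt- sum (%) held by each class in 3 female (circles) and 3 male (squares) libraries, with the mean and SD of each sex at the side. Complex IV runs from 33.5% to 38.3% in females and from 38.8% to 41.4% in males, and the other classes overlap.

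Among single genes, 3 of the 14 had shares of the mt- sum that did not overlap between the sexes, where 6.79% of all tested genes did so when divided by the same sum. The share of mt-Co1 was 22.2%, 19.9% and 17.6% in the females and 22.5%, 23.9% and 23.0% in the males. It makes up the largest part of the complex IV share, so these are not separate observations. The gap was narrow, with female replicate 1 next to male replicate 1. The share of mt-Rnr1 was 0.858%, 0.987% and 0.947% in the females and 1.01%, 1.09% and 1.08% in the males. The share of mt-Nd5 was 4.71%, 5.19% and 5.94% in the females and 3.94%, 4.67% and 4.70% in the males, with female replicate 1 next to male replicate 3. Shares of one sum are tied to each other, since a higher share of one gene lowers those of others.

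Nuclear genes that copy, transcribe, process and translate the mitochondrial genome were described by a list of 88 symbols, which holds old and current names. Of the 82 tested, 0 passed at an adjusted p of 0.05 in edgeR or DESeq2. In edgeR, 45 were higher in females and 37 in males, with a median log2 fold change of 0.03. Scaled by library totals alone the counts were 24 and 58 and the median -0.10, beside -0.12 over all genes. At an unadjusted p under 0.05 there were 2 of 82, near the 2.89% of all genes. Primpol, a primase that restarts stalled replication in nucleus and mitochondria, had 44.7, 36.1 and 70.4 CPM in the females and 9.28, 22.0 and 27.6 in the males (1.36 ± 0.42, SE, adjusted p = 0.999). Mtif2, the mitochondrial translation initiation factor, had 74.0, 79.6 and 93.6 CPM in the females and 63.6, 55.8 and 67.9 in the males (0.40 ± 0.16, SE, adjusted p = 0.999). In both, every female lay above every male, where 9.0% of all tested genes had no overlap in either direction. Neither passed the adjusted threshold.
A few further members are given for their roles, outside the rule that named those genes. Tfam, which packages and helps transcribe mitochondrial DNA, had 127.5 to 171 CPM. Lrpprc, which stabilises mitochondrial mRNAs, had 153 to 205. Polrmt, the mitochondrial RNA polymerase itself, had 0.190 to 0.740 CPM, against 0.0841 to 0.125 CPM for 3 counts in a library.

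The nuclear subunits of complexes I to V, which assemble with the mitochondrial ones, numbered 73 tested of 78 listed. In edgeR 20 were higher in females and 53 in males, with a median log2 fold change of -0.16. Over all genes tested the counts were 6099 and 6073 and the median 0.00. At an adjusted p of 0.05, 0 of the 73 passed in edgeR or DESeq2, where 0.0575% of all genes passed in edgeR. At an unadjusted p under 0.05, edgeR had 0 of the 73, where 2.89% of all genes passed. Without female replicate 3 the counts were 41 and 32, and the median was 0.04. Without female replicate 1 the median was -0.50. Scaled by library totals alone, the counts were 10 and 63 and the median -0.25, beside 4078 and 8094 and -0.12 over all genes. The smallest p belonged to Ndufab1, the acyl carrier protein of complex I, at 153 to 254 CPM in females and 118 to 171 in males (0.47 ± 0.22, SE), and Atpif1, the inhibitor of ATP synthase, at 5.40 to 12.1 and 11.3 to 14.7 (-0.67 ± 0.32, SE).
Mitochondrial mRNAs carried far more counts than their nuclear partners. The summed CPM of the 12 detected mRNAs was 21.4 ± 5.80 times (SD, n = 6) that of the nuclear subunits of complexes I, III, IV and V, from 16.3 times in female replicate 1 to 32.8 times in female replicate 3. By complex, the mean ratio of summed CPM was 57.4 for complex IV (44.7 to 87.6), 32.3 for complex I, 22.4 for complex III and 4.85 for complex V. The sums run over unequal numbers of mitochondrial and nuclear genes. These were 3 and 12 for complex IV and 7 and 36 for complex I. For complex III they were 1 and 9, and for complex V 1 and 16. How far these numbers set the order of the ratios was not tested. The sexes overlapped in the ratio over all 4 complexes (exact permutation p = 0.7). These sums are not per length, and several nuclear subunits have short transcripts, in the range where fewer genes had counts.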

How the data were processed

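RNA of 6 B cell libraries, 1 per mouse, was analysed from 1 deposited table. Its values are estimated counts per gene that the authors made, per the submitters' processing notes, with kallisto; these notes also name DESeq2 and the build GRCm38.p6. The settings, annotation and use of strand were not given in the sources used here. Estimated counts were rounded to whole numbers and tested with edgeR 4.0.16 (R 4.3.3) by sex, with TMM scaling, the low-count filter filterByExpr and Benjamini-Hochberg adjustment over 12172 genes. DESeq2 1.42.0 and limma-voom (limma 3.58.1) were alternatives. The fit was tested on simulated data. CPM used the TMM effective library size; shares of a library used its total. Single values were compared by exact permutation of the 6 libraries. Rows were matched to GENCODE M21 by symbol (39227 of 41669); near-copies were found with BLASTN 2.17.0. All mt- mRNA and rRNA rows were named, the 2 nuclear genes of smallest p per list, and near-copies reaching 10 counts. Members and lists were chosen with earlier results of these data known. P-values set the difference between the sexes against the spread between these mice. Total counts per library bound counting error, which is small beside that spread.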

Additional observations from a re-analysis of the deposited data

How the results depend on the processing

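No mitochondrial gene was called in any of the 16 fits, with a smallest adjusted p of 0.405. The log2 fold change of some genes near 0 changed sign. With library totals only it was -0.14 for mt-Rnr1, -0.10 for mt-Co3 and -0.10 for mt-Nd4l. With the mt- sum as the library total it was -0.18 for mt-Rnr1, -0.014 for mt-Nd1, -0.040 for mt-Co2, -0.12 for mt-Co3 and -0.10 for mt-Nd4l. For mt-Rnr1 it was -0.013 in limma-voom. With a replicate block the same gene had -0.013, and the median of the mitochondrial genes was 0.23 with 0 called. Same-numbered mice had correlated deviations of 0.22, 0.04 and 0.07, not every mouse correlated best with its own number, and within pairs the library share gave an exact permutation p of 0.75 (3 pairs cannot go below 0.25), so the block is no evidence of pairing. Leaving out 1 library at a time gave -0.24 to 0.24 for mt-Rnr1, -0.050 to 0.37 for mt-Nd1, -0.19 to 0.052 for mt-Co1, -0.15 to 0.46 for mt-Co2, -0.0625 to 0.56 for mt-Atp6, -0.13 to 0.16 for mt-Co3 and -0.0285 to 0.0695 for mt-Nd4l. It gave -0.481 to 0.900 percentage points for the mitochondrial share of library counts and -0.122 to 1.33 for the complex V share. Dividing rows by length put the rRNA difference at -0.00812 percentage points. The machinery list's median was -0.10 with library totals only. The cause of these changes was not tested. The fits with near-copies added were chosen after seeing the data. The tRNA share gave no value under any alternative, as its rows are all at 0.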
